A study of Homo sapiens with 8 samples.

Results

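The genes described here are 56 genes of DNA replication and their E2F partners, listed by symbol: origin licensing and helicase genes, polymerases, the sliding clamp and its loader, Okazaki fragment enzymes, nucleotide enzymes, replication-coupled chromatin factors and E2F genes. All 56 symbols matched 1 Ensembl gene ID each among the 78932 in the deposited count table, and all 56 passed the filter on low counts that left 24289 genes for testing. The 8 libraries come from sucrose gradients of human acute myeloid leukaemia cells labelled Molm13 or U937, both established lines. Cells labelled OGFOD1 OE were described as carrying a lentiviral OGFOD1 expression vector. The other cells were labelled control (their library names hold the letters Scr). All cells were lysed in cycloheximide, which holds ribosomes on mRNA. Each gradient gave a heavy pool, with 3 or more ribosomes per mRNA, and a light pool of free ribonucleoproteins, monosomes and disomes. The groups are OE heavy, control heavy, OE light and control light, each with 1 library per line label (n = 2). The labels name 1 library per line label, genotype label and pool, and nothing says that the groups hold separate cultures beyond the line, so a p-value here covers only how these libraries vary, which may be technical, and heavy and light pools of the same cells enter as separate libraries.

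In a dividing cell the origin recognition complex, CDC6 and CDT1 load the MCM2 to MCM7 ring onto DNA in G1 phase. CDC45 and the GINS complex turn that ring into the replicative helicase in S phase, and polymerases alpha, delta and epsilon then copy the DNA behind it, with PCNA as the sliding clamp and the RFC complex as its loader. As cells pass from G1 to S phase, most of these genes are transcribed by E2F factors, which the retinoblastoma protein family restrains. Their RNAs are abundant in fast-growing leukaemia lines.

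As a check of the labels, OGFOD1 counts ran opposite to the direction that the OE label names. Whether RNA from the vector's copy of OGFOD1 was counted is not known here. Nor is it known whether the OE and control labels were exchanged, which would reverse every direction between them. Neither was tested. OGFOD1 had 25.3 and 12.4 CPM in the heavy pools labelled OE, against 44.4 and 60.2 CPM in the control heavy pools, and 16.7 and 10.1 CPM in light pools carrying the OE label, against 33.0 and 49.8 CPM in the control light pools; in each such pair of values the library labelled Molm13 stands before the one labelled U937. CPM, the unit of these levels, is the TMM-scaled read count relative to library size, computed here. OGFOD1 RNA was thus lower in every library labelled OE than in its control (-1.60 on the log2 scale over both pools, SE 0.30, adjusted p = 0.0178), and every direction below is that of the library labels. Total counts ranged from 25741930 to 89373133 per library. The control light library labelled Molm13 stood apart: the mitochondrial rRNA MT-RNR2 took 0.646% of its counts, against 11.2% to 12.8% in the other light libraries and 0.0622% to 0.243% in the heavy ones. Of the 11 leukaemia and myeloid markers 0 passed the test between line labels and 3 had an unadjusted p under 0.05, among them MPO at 1.18 (U937 minus Molm13, log2, adjusted p = 0.153). FLT3 had 93.6 to 202 CPM under the U937 label and 85.3 to 169.6 CPM under the Molm13 label, and HOXA9 had 91.2 to 107 CPM under the U937 label and 61.3 to 97.8 CPM under the Molm13 label. All 11 were detected, with CEBPA at 182 CPM or more, and between OE and control MPO fell (-1.01, SE 0.24, adjusted p = 0.0358) while the other 10 did not pass. Of 9 markers of other cell types, CD3E, MS4A1, HBB and ALB were at 0.1 CPM or less in every library; summed over the 9, the level was 78.6 to 135 CPM in OE libraries and 45.9 to 101 CPM in control libraries, mostly from PECAM1. Of the 4 of these that could be tested KRT18 fell (-1.45, SE 0.25, adjusted p = 0.0139), the direction of the replication genes, and the other 3 did not pass. The part of these differences in the results was not tested.

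Across both pools, most replication genes had less RNA in the libraries labelled OE. Of the 56 genes 31 fell and 0 rose (edgeR's quasi-likelihood test, Benjamini-Hochberg adjusted p under 0.05 over all 24289 genes), against 2.36% of all tested genes that fell and 2.01% that rose. The median log2 fold change of the 56 was -1.0, against -0.05 over all tested genes, and 45 of the 56 had an unadjusted p under 0.05, as did 22.2% of all tested genes. In each of the 4 matched pairs (a line label and pool) 42 of the 56 were lower in the OE library, a direction that 14.4% of all tested genes showed. For 37 of the 56, both OE libraries lay below both control libraries in each pool, against 9.7% of all tested genes. Summed over the 56 genes, the level was 3160 and 2462 CPM in OE heavy libraries, against 4621 and 5508 CPM in control heavy libraries, and 1680.3 and 1688 CPM in OE light libraries, against 2771 and 3085 CPM in control light libraries. In bulk RNA, fewer cells that express a gene and less RNA per cell cannot be told apart.

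The count of calls moved with single libraries. Without the U937 OE heavy library 0 of the 56 genes passed, without Molm13 OE heavy or U937 control heavy 7, without U937 OE light 12, without Molm13 control heavy 14 and without Molm13 OE light 21. When Molm13 control light was left out 41 passed, and when U937 control light was left out 38. Calls over all 24289 tested genes moved too: 1061 with all libraries, 0 without U937 OE heavy, 55 without U937 control heavy, 134 without Molm13 OE heavy, and 3126 or 1994 when the control light library labelled Molm13 or U937 was dropped. The median stayed between -1.05 and -0.90 in these 8 fits. With the counts of each gradient summed, 0 of the 56 passed (median -0.95), as did 0 of all tested genes, of which 4186 had an unadjusted p under 0.05. Without the line label in the model 12 of the 56 passed. Over all tested genes 45.9% of the calls were higher in OE libraries, and 61.0% with upper-quartile scaling, under which 26 of the 56 fell and 0 rose.

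**Figure D1:**
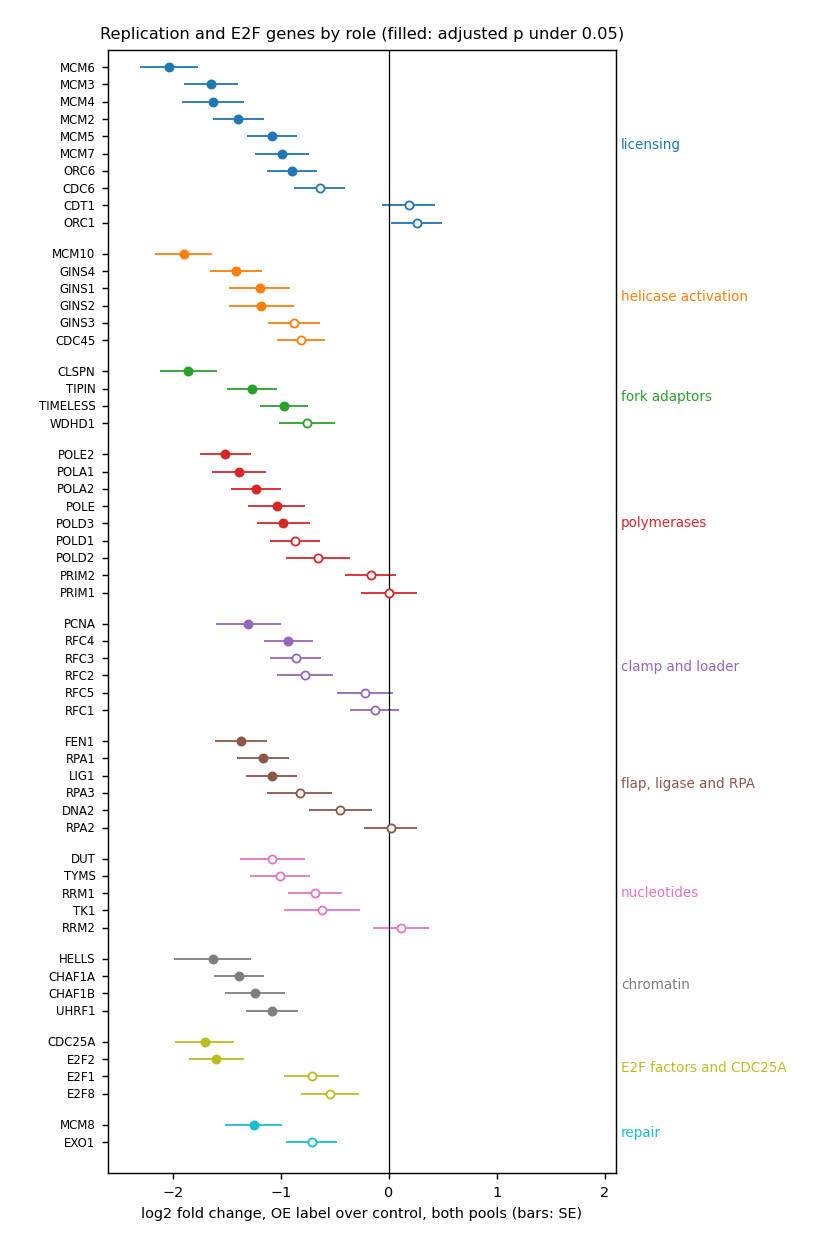
Log2 fold change of OE over control over both pools for each of the 56 genes, grouped by role, with bars of 1 SE on either side; filled points passed the adjusted threshold and open points did not. Points lie between -2.04 and 0.26, and the open points near 0 include PRIM1, RPA2, RRM2, CDT1 and ORC1.

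The promoters of 5 genes with low values, chosen after their values were seen, are shown here, with that of PRIM1 for contrast. Other genes with values as low, such as MCM3 (-1.65) and HELLS (-1.63), are not shown. E2F factors bind such windows, and whether they have a part in these values was not tested. Windows of 300 bases (250 before and 50 after the annotated start) came from RefSeq on GRCh38.p14 and matched 48 of the 56 genes. The letters searched, on either strand and with overlaps counted, were TTTCCCGC, TTTCGCGC, TTTGCCGC and TTTGGCGC, 4 forms of the E2F site. Other forms were not searched. A match lay in 28 of the 64 windows of these genes (43.8%), against 3.31% of all 35116 windows. The genes were listed as replication genes and E2F targets, so a higher share is in part built into the list. It says nothing about these libraries, and each window of a gene with several was counted. Matches are in capitals, and each sequence runs 5′ to 3′ on the strand of its gene. MCM6 held 4 matches, in 2 copies of an element that holds TTTGGCGC on the printed strand and TTTCGCGC on the other, and no other window of the 35116 held 4 or more. CLSPN, CDC25A and E2F2 held 1 match each, and MCM10 and PRIM1 held none of the forms searched. The MCM10 window holds tttggcgg, which differs from a searched form only in its last letter. The PRIM1 window holds gttcccgc, which differs from a searched form only in its first letter. Such near forms were not counted in any window.
MCM6 (chr2:135876394-135876693, minus strand): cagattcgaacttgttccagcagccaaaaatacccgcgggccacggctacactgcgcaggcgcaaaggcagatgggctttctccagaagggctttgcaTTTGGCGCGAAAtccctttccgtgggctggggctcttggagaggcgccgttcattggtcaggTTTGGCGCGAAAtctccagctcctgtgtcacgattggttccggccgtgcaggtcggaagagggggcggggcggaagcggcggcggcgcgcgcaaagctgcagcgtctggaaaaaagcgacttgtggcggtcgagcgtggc
CLSPN (chr1:35769929-35770228, minus strand): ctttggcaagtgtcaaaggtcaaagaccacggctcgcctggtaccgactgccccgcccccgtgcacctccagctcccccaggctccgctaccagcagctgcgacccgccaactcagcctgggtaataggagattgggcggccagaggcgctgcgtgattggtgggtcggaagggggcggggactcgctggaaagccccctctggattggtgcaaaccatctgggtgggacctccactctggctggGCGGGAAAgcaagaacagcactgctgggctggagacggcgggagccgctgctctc
CDC25A (chr3:48188368-48188667, minus strand): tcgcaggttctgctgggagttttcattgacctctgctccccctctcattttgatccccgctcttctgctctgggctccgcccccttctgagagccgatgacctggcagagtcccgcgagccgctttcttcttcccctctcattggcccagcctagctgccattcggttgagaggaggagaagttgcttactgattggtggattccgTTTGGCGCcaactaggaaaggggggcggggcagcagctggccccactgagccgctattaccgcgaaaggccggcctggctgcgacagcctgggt
E2F2 (chr1:23531184-23531483, minus strand): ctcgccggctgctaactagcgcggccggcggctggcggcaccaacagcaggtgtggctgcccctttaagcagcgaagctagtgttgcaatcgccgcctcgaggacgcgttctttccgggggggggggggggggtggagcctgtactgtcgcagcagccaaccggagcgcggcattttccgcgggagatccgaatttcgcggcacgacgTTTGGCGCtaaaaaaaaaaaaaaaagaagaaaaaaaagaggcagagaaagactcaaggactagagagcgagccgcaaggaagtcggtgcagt
MCM10 (chr10:13161308-13161607, plus strand): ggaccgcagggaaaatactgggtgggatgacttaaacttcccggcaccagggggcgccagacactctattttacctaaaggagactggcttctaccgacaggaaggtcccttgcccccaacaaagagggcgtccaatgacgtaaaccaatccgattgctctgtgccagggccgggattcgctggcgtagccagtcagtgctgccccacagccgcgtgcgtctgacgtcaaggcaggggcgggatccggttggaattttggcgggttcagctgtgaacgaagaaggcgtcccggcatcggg
PRIM1 (chr12:56752274-56752573, minus strand): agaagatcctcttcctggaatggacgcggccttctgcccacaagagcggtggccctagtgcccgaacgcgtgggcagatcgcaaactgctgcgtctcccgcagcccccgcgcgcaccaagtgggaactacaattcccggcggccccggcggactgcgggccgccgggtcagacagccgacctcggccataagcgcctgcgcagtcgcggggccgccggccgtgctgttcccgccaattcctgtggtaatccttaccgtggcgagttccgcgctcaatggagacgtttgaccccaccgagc
A match describes letters only. The 27 genes with a match in any window had a median log2 fold change over both pools of -1.20, and the 21 genes with windows and no match had -0.77; CDT1, which holds a match, was at 0.18, and MCM10, which holds none, at -1.90. The 2 sets were not compared by a test.

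Of the 10 origin licensing genes 7 fell, among them all 6 subunits of the MCM2 to MCM7 ring. MCM6 (ENSG00000076003, chromosome 2, 135839626 to 135876426, minus strand, GRCh38) had 36.8 and 33.2 CPM in the heavy pools labelled OE, against 128 and 147 CPM in the control heavy pools, and 18.1 and 14.8 CPM in light pools carrying the OE label, against 51.7 and 93.6 CPM in the control light pools. Every OE library lay below every control library of either pool. Over both pools it was at -2.04 (SE 0.27, adjusted p = 0.00982) on the log2 scale, the form in which bracketed values follow for the other genes; MCM10 and CLSPN, described below, came next. MCM3 (ENSG00000112118, chromosome 6, 52264009 to 52284881, minus strand) had 51.0 and 43.1 CPM in the heavy pools labelled OE, against 131 and 147 CPM in the control heavy pools, and 20.3 and 21.8 CPM in light pools carrying the OE label, against 55.2 and 88.0 CPM in the control light pools. The groups did not overlap within either pool (-1.65, SE 0.25, adjusted p = 0.0121). The other ring subunits had log2 fold changes of -1.63 for MCM4, -1.40 for MCM2, -1.08 for MCM5 and -0.99 for MCM7, each past the threshold. ORC6, a subunit of the origin recognition complex, fell with them (-0.90, SE 0.23, adjusted p = 0.0466). MCM2 shares up to 1113 exonic bases with a gene on the opposite strand, and whether the counting used strand is not known here.

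The other 3 licensing genes did not pass. CDC6, the ATPase that helps load the ring, was at -0.64 and did not pass (adjusted p = 0.134), although it was lower in 4 of 4 pairs. ORC1, the largest subunit of the origin recognition complex, had 8.7 and 9.48 CPM in OE heavy libraries and 14.0 and 13.8 CPM in control heavy libraries, but 31.5 and 48.4 CPM in OE light libraries and 12.9 and 23.6 CPM in control light libraries. It was lower in both OE heavy libraries and higher in both OE light libraries, so that its value over both pools was 0.26 (SE 0.24, adjusted p = 0.569). CDT1, the licensing factor that geminin inhibits, had 44.4 and 47.1 CPM in OE heavy libraries and 66.4 and 61.1 CPM in control heavy libraries, and 87.5 and 132 CPM in OE light libraries and 48.4 and 73.4 CPM in control light libraries. Its libraries split by pool in the same manner, with 0.18 (SE 0.24, adjusted p = 0.714) over both pools.

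Helicase activation genes fell in 4 of 6 cases. MCM10, which helps start the unwinding of origins, had 9.46 and 7.15 CPM in the heavy pools labelled OE, against 31.4 and 33.0 CPM in the control heavy pools, and 6.16 and 4.88 CPM in light pools carrying the OE label, against 14.5 and 25.3 CPM in the control light pools. All 4 OE libraries lay below all 4 control libraries (-1.90, SE 0.26, adjusted p = 0.00982). GINS4 had 34.9 and 28.7 CPM in the heavy pools labelled OE, against 119.6 and 124 CPM in the control heavy pools, and 17.5 and 21.4 CPM in light pools carrying the OE label, against 29.8 and 43.6 CPM in the control light pools. The heavy libraries differed about as much as those of MCM10 and the light ones less (-1.42, SE 0.24, adjusted p = 0.0133); up to 1159 of its exonic bases overlap a gene on the opposite strand. GINS1 (-1.20) and GINS2 (-1.18) fell as well. GINS2 was lower in 3 of 4 pairs. In the Molm13 heavy pair it was higher in the OE library, with 89.4 CPM against 69.1 CPM in the control. GINS3 (-0.88) and CDC45 (-0.81) did not pass, each with an adjusted p of 0.057, although both were lower in 4 of 4 pairs.

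Fork adaptor genes, whose proteins link helicase, polymerases and checkpoint, fell in 3 of 4 cases. CLSPN, the adaptor through which ATR activates CHK1, had 19.9 and 8.91 CPM in the heavy pools labelled OE, against 62.9 and 46.0 CPM in the control heavy pools, and 9.22 and 5.34 CPM in light pools carrying the OE label, against 21.5 and 23.8 CPM in the control light pools. In each pool the OE libraries were lower without overlap (-1.86, SE 0.26, adjusted p = 0.00982). TIPIN, the partner of TIMELESS, had 25.4 and 21.1 CPM in OE heavy libraries and 46.6 and 64.6 CPM in control heavy libraries, and 9.88 and 10.9 CPM in OE light libraries and 23.1 and 28.4 CPM in control light libraries. It too showed no overlap within a pool (-1.27, SE 0.23, adjusted p = 0.0154). TIMELESS fell by 0.97 on the log2 scale, and WDHD1, which couples polymerase alpha to the helicase, was at -0.75 (adjusted p = 0.108).

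Among the 9 polymerase genes 5 fell, and the primase subunits were the exceptions by value. POLE2, the second subunit of polymerase epsilon, had 3.63 and 5.73 CPM in the heavy pools labelled OE, against 10.3 and 17.8 CPM in the control heavy pools, and 3.89 and 8.02 CPM in light pools carrying the OE label, against 10.9 and 21.6 CPM in the control light pools. The OE libraries were the lower ones in either pool (-1.51, SE 0.23, adjusted p = 0.0121). POLA1, the catalytic subunit of polymerase alpha, had 5.45 and 4.43 CPM in OE heavy libraries and 19.3 and 17.8 CPM in control heavy libraries, and 8.09 and 5.99 CPM in OE light libraries and 10.7 and 14.7 CPM in control light libraries. Its heavy libraries differed more than its light ones (-1.39, SE 0.25, adjusted p = 0.0149). POLA2 (-1.23), POLE (-1.04) and POLD3 (-0.98) also fell; 2012 exonic bases of POLA2 are shared with a gene on the same strand. POLD1 (-0.87, adjusted p = 0.0518) and POLD2 (-0.66, adjusted p = 0.215) did not pass. The primase subunits, which make the RNA primer in complex with POLA1, were at -0.00 (SE 0.26) for PRIM1 and -0.17 (SE 0.24) for PRIM2.

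The clamp and its loader were less uniform, with 2 of 6 genes lower. PCNA, the ring that tethers polymerases to DNA, had 323 and 283 CPM in the heavy pools labelled OE, against 449 and 699 CPM in the control heavy pools, and 92.5 and 72.1 CPM in light pools carrying the OE label, against 232 and 312 CPM in the control light pools. The OE libraries were below the control ones in each pool (-1.30, SE 0.30, adjusted p = 0.0336). RFC4 had 41.8 and 30.4 CPM in OE heavy libraries and 62.8 and 72.8 CPM in control heavy libraries, and 21.3 and 16.1 CPM in OE light libraries and 36.5 and 34.4 CPM in control light libraries (-0.93, SE 0.23, adjusted p = 0.042). RFC3 (-0.86) and RFC2 (-0.77) had adjusted p = 0.055 and 0.1. RFC5 (-0.22) and the large subunit RFC1 (-0.13) were nearer 0.

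Of 6 genes for flap cutting, ligation and single-stranded DNA binding 3 fell. FEN1, the flap endonuclease of Okazaki fragments, had 58.4 and 32.5 CPM in the heavy pools labelled OE, against 97.7 and 97.6 CPM in the control heavy pools, and 11.2 and 9.86 CPM in light pools carrying the OE label, against 36.4 and 27.0 CPM in the control light pools. The light libraries labelled OE held the lowest levels (-1.37, SE 0.24, adjusted p = 0.014). RPA1, the large subunit of the single-strand binding protein, had 35.0 and 35.5 CPM in OE heavy libraries and 72.2 and 83.8 CPM in control heavy libraries, and 24.4 and 18.2 CPM in OE light libraries and 41.7 and 56.3 CPM in control light libraries. Its groups did not overlap in either pool (-1.17, SE 0.24, adjusted p = 0.0232), and the ligase gene LIG1 fell by 1.09. RPA2, the middle subunit of the same trimer, had 96.1 and 76.0 CPM in OE heavy libraries and 65.1 and 66.7 CPM in control heavy libraries, and 33.9 and 43.8 CPM in OE light libraries and 59.6 and 40.5 CPM in control light libraries. It was higher in 3 of 4 OE libraries, with 0.02 (SE 0.24) over both pools. RPA3 (-0.83, adjusted p = 0.129) and the nuclease-helicase DNA2 (-0.45) did not pass.

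None of the 5 nucleotide genes passed, with 0 of 5 called. TYMS, which makes thymidylate, had 239 and 209 CPM in OE heavy libraries and 298 and 427 CPM in control heavy libraries, and 84.8 and 77.7 CPM in OE light libraries and 196 and 216 CPM in control light libraries. It was lower in 4 of 4 pairs and just missed the threshold (-1.01, SE 0.27, adjusted p = 0.0561); it overlaps the opposite-strand genes ENOSF1 and TYMSOS by up to 967 exonic bases. DUT, which clears dUTP, had 329 and 211 CPM in OE heavy libraries and 399 and 543 CPM in control heavy libraries, and 65.2 and 64.9 CPM in OE light libraries and 209.5 and 121 CPM in control light libraries, and was likewise lower in 4 of 4 pairs (-1.08, SE 0.30, adjusted p = 0.0593). RRM2, the small subunit of ribonucleotide reductase, had 159 and 159 CPM in OE heavy libraries and 159 and 192 CPM in control heavy libraries, and 212 and 201 CPM in OE light libraries and 137 and 187 CPM in control light libraries. Its OE and control libraries overlapped in the heavy pool and the OE ones were the higher in the light pool (0.11, SE 0.26). The large subunit RRM1 was at -0.68 (adjusted p = 0.129) and thymidine kinase TK1 at -0.62 (adjusted p = 0.33).

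All 4 chromatin genes fell. CHAF1A, the large subunit of the histone chaperone CAF-1, had 25.9 and 22.6 CPM in the heavy pools labelled OE, against 85.7 and 67.7 CPM in the control heavy pools, and 12.9 and 16.1 CPM in light pools carrying the OE label, against 29.5 and 33.7 CPM in the control light pools. OE libraries were below control ones in each pool (-1.39, SE 0.23, adjusted p = 0.0133). HELLS, a chromatin remodeller, had 13.6 and 7.15 CPM in OE heavy libraries and 37.5 and 42.3 CPM in control heavy libraries, and 17.4 and 6.85 CPM in OE light libraries and 17.9 and 36.5 CPM in control light libraries. The Molm13 light pair hardly differed, and the other 3 pairs did (-1.63, SE 0.35, adjusted p = 0.0275). CHAF1B (-1.24) and UHRF1 (-1.09), which brings the maintenance DNA methyltransferase to new DNA, fell too.

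Of the E2F genes and CDC25A 2 of 4 fell. CDC25A, the phosphatase that activates CDK2, had 6.25 and 6.68 CPM in the heavy pools labelled OE, against 16.6 and 22.3 CPM in the control heavy pools, and 4.45 and 4.86 CPM in light pools carrying the OE label, against 10.2 and 25.6 CPM in the control light pools. The 4 OE libraries spanned a narrow range below every control library (-1.71, SE 0.27, adjusted p = 0.0121). E2F2, an activating E2F, had 4.1 and 4.65 CPM in the heavy pools labelled OE, against 11.9 and 14.3 CPM in the control heavy pools, and 2.68 and 3.47 CPM in light pools carrying the OE label, against 6.6 and 12.9 CPM in the control light pools, again without overlap (-1.60, SE 0.25, adjusted p = 0.0122). E2F1, the other activator listed, was at -0.71 (adjusted p = 0.117) and the repressor E2F8 at -0.55 (adjusted p = 0.25); each was lower in 4 of 4 pairs. The last 2 genes act in recombination and repair. MCM8, a helicase of the same family as the ring subunits, had 10.6 and 10.1 CPM in OE heavy libraries and 25.4 and 32.1 CPM in control heavy libraries, and 12.5 and 10.2 CPM in OE light libraries and 16.1 and 32.8 CPM in control light libraries (-1.25, SE 0.26, adjusted p = 0.0247). The exonuclease gene EXO1 had 6.08 and 9.56 CPM in OE heavy libraries and 10.0 and 15.4 CPM in control heavy libraries, and 6.49 and 6.85 CPM in OE light libraries and 8.53 and 14.5 CPM in control light libraries (-0.72, SE 0.24, adjusted p = 0.0992). Both genes were lower in the OE library of all 4 pairs, and MCM8 alone passed.

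Per kilobase of exon (GENCODE release 29), the mean level over the 8 libraries was 209 CPM for PCNA, 88.5 for TYMS, 66.1 for DUT and 56.7 for TK1, and 0.66 for POLE, 0.74 for DNA2 and 0.96 for WDHD1 at the low end. The lowest count of any of the 56 genes in a library was 34 reads, for DNA2.

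**Figure D2:**
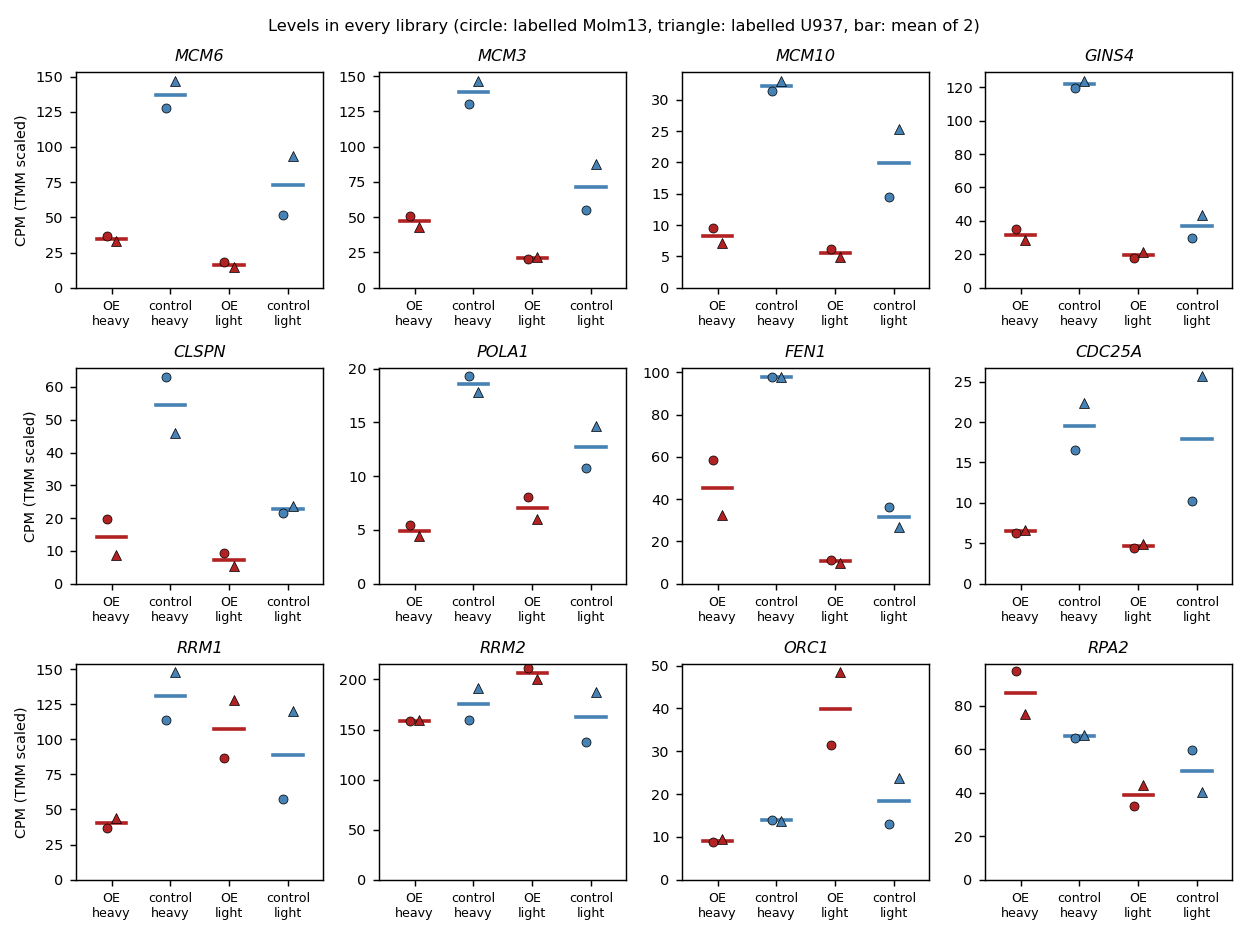
CPM on a linear axis from 0 for 12 of the genes, with OE left of control in the heavy and then the light pool; circles are libraries labelled Molm13, triangles those labelled U937, and each bar is the mean of 2. MCM6 lies at 33.2 and 36.8 CPM in OE heavy libraries and at 128 and 147 CPM in control heavy libraries, while RRM2 overlaps between the labels there.

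By line label, the OE libraries were lower in all 4 pairs as a group. In the heavy pools the median of the 56 OE minus control differences was -1.19 on the log2 scale under the U937 label and -0.83 under the Molm13 label, against 0.01 and -0.03 over all tested genes. In the light pools it was -1.07 under the U937 label and -0.83 under the Molm13 label, against -0.04 and -0.08. At least 1 log2 unit lower were 35 of the 56 genes in the U937 heavy pair and 27 in the Molm13 heavy pair (10.9% and 15.6% of all tested genes), and 31 and 25 in the U937 and Molm13 light pairs (13.3% and 19.4%). Averaged over the pools, MCM6 differed by -2.40 under the U937 label and -1.65 under the Molm13 label, CLSPN by -2.26 and -1.44, and HELLS by -2.48 and -0.75. POLE2 was at -1.53 and -1.49, and CHAF1A (-1.32 and -1.46) and LIG1 (-0.86 and -1.33) differed more under the Molm13 label; these 6 were chosen after their values were seen. These are values of 1 OE and 1 control library per pool and label and were not tested against each other.

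**Figure D3:**
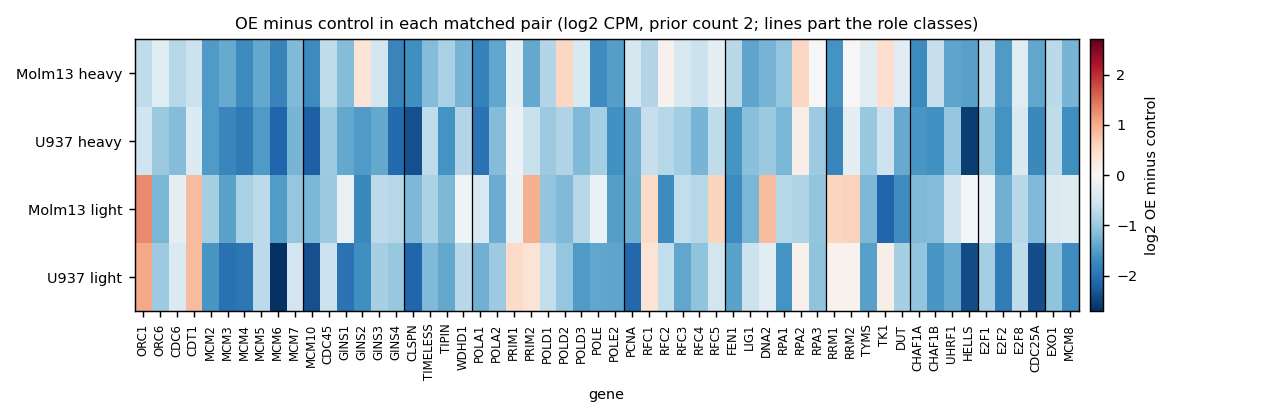
OE minus control difference in log2 CPM for each of the 56 genes (columns, in role order) in each matched pair (rows); blue is lower and red higher in the OE library. Most columns are blue in all 4 rows, and ORC1, CDT1 and PRIM2 are red in both light rows and blue in both heavy rows.

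In the heavy pools alone, which hold the RNA on polysomes, 55 of the 56 genes had a negative log2 fold change, as did 12502 of all 24289 tested genes. The median was -1.02, against -0.03 over all tested genes. In edgeR's test 0 of the 56 passed, where 0.00412% of all tested genes (1 gene) fell and 0% rose; 38 of the 56 had an unadjusted p under 0.05, as did 15.1% of all tested genes. The values of smallest p were those of GINS4 (-1.93), CLSPN (-1.99), POLA1 (-1.92), MCM10 (-1.96) and MCM6 (-1.96), each with an adjusted p of 0.074. RPA2 was the 1 gene with a positive value, 0.38 (SE 0.34, adjusted p = 0.647), and was higher in both OE libraries. In both heavy pairs 51 of the 56 were lower, against 32.2% of all tested genes. DESeq2 called 24 of the 56 and limma voom 0; edgeR called 25 when the Molm13 control light library was left out, 25 when U937 control light was, 6 when Molm13 OE light was, and 0 when any other library was. The 3 light libraries named there enter this comparison only through the scaling, the line term and the estimate of the spread.

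In the light pools 48 of the 56 had negative values, as did 12847 of all 24289 tested genes. The median was -1.04, against -0.05 over all tested genes, and 0 of the 56 passed, where 0% of all tested genes did. In both light pairs 45 were lower, against 30% of all tested genes, and 6 were higher, as were 5999 of all 24289 tested genes. An unadjusted p under 0.05 was found for 41 of the 56 and for 14.8% of all tested genes. Of smallest p were MCM6 (-2.11), MCM10 (-1.84), MCM3 (-1.75), CDC25A (-1.85) and CLSPN (-1.72), with adjusted p of 0.138 to 0.14. On the positive side stood ORC1 (1.15, SE 0.34, adjusted p = 0.172), CDT1 (0.85, SE 0.35, adjusted p = 0.28), PRIM2 (0.66), RFC1 (0.45), RRM2 (0.36), RRM1 (0.31), DNA2 (0.25) and PRIM1 (0.21). DESeq2 called 20 of the 56, of which ORC1 alone was higher, among 930 of all tested genes, and limma voom called 0. In edgeR's fits the median of the 56 was -1.05 without the Molm13 control light library and -0.87 without U937 control light.

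The difference between these differences asks whether the label goes with a shift of an RNA between heavy and light pools. None of the 56 passed (edgeR, adjusted p of 0.791 or more), where 0% of all tested genes did; 6 of the 56 had an unadjusted p under 0.05, as did 5.89% of all tested genes. The median was -0.12, against 0.08 over all tested genes. RRM1 had the value of smallest p, -2.00 (SE 0.51), with 37.1 and 43.7 CPM in OE heavy libraries and 114 and 148 CPM in control heavy libraries, and 86.4 and 128 CPM in OE light libraries and 57.7 and 120.1 CPM in control light libraries. Its OE libraries were low in the heavy pool and, within each line label, above the control in the light pool. Under the U937 label that light difference was only 0.09 on the log2 scale. The antisense gene RRM1-AS1, which shares 63 exonic bases with RRM1, had 5.24 and 5.23 CPM in OE heavy libraries and 18.7 and 18.3 CPM in control heavy libraries, and 9.01 and 11.3 CPM in OE light libraries and 5.7 and 7.89 CPM in control light libraries, the same order of groups, and reads in the shared bases cannot be told apart if strand was not used. PRIM2 had 6.59 and 12.0 CPM in OE heavy libraries and 17.2 and 18.3 CPM in control heavy libraries, and 23.6 and 28.4 CPM in OE light libraries and 12.1 and 22.0 CPM in control light libraries, a value of -1.65 (SE 0.48). ORC1 was at -1.77 (SE 0.48), CDT1 at -1.34 (SE 0.49) and RFC1 at -1.16 (SE 0.45). On the other side were GINS2 (1.04, SE 0.60), TK1 (1.02, SE 0.73), POLD2 (0.95, SE 0.60), RFC2 (0.86, SE 0.52) and RPA2 (0.72, SE 0.49).

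DESeq2 called 1 of the 56, RRM1, and limma voom 0. Without the U937 control light library edgeR called ORC1 (-2.11), PRIM2 (-1.87), RRM1 (-2.36) and, in the other direction, TK1 (1.94), that is 4 of the 56, among 975 of all 24289 tested genes. Without the Molm13 control light library none passed and the values were -1.48 for ORC1, -1.41 for PRIM2, -1.70 for RRM1 and -0.02 for TK1, whose level in that library was 112 CPM, against 23.3 CPM in U937 control light. Across the 56 genes the value was lower for longer coding sequences (Spearman's rho -0.52, n = 56 genes that share the same 8 libraries), and the same relation over the 13611 tested genes with a coding sequence had a rho of -0.32; both are descriptions.

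**Figure D4:**
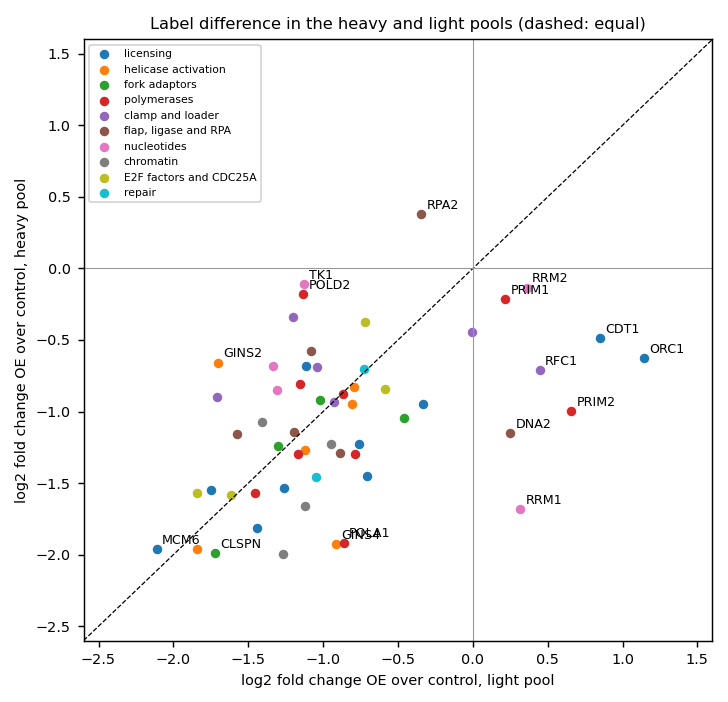
Log2 fold change of OE over control in the heavy pool (vertical axis) against that in the light pool (horizontal axis) for the 56 genes, coloured by role; the dashed line marks equal values. Most points lie in the lower left part near the line, and 8 genes lie to the right of 0 and below 0 (ORC1, CDT1, PRIM1, PRIM2, RFC1, DNA2, RRM1 and RRM2).

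Heavy against light pools, over both labels, showed which of these RNAs were richer on polysomes. Of the 56 genes 28 were higher in the heavy pools and 3 lower, against 15.8% and 12.8% of all tested genes, and the median log2 fold change was 0.67, against -0.04. TK1 had the highest value: 219.8 and 112 CPM in OE heavy against 25.3 and 25.9 CPM in OE light libraries, and 161 and 165 CPM in control heavy against 112 and 23.3 CPM in control light libraries. The heavy library was the higher of each pair, and least so in the control pair labelled Molm13 (2.05, SE 0.37, adjusted p = 0.0021). FEN1 had 58.4 and 32.5 CPM in OE heavy against 11.2 and 9.86 CPM in OE light libraries, and 97.7 and 97.6 CPM in control heavy against 36.4 and 27.0 CPM in control light libraries (1.86, SE 0.24, adjusted p = 0.000658). DUT (1.79), RFC2 (1.54), PCNA (1.48), GINS2 (1.33) and POLD1 (1.29) followed. ORC1 was the lowest, with 8.7 and 9.48 CPM in OE heavy against 31.5 and 48.4 CPM in OE light libraries, and 14.0 and 13.8 CPM in control heavy against 12.9 and 23.6 CPM in control light libraries. It was lower in the heavy library of 3 of 4 pairs and slightly higher in the control pair labelled Molm13 (-1.22, SE 0.24, adjusted p = 0.00328). PRIM2 (-0.70) and RFC1 (-0.66) were the other 2 lower genes, and DNA2 (-0.73) and RFC5 (-0.61) did not pass. The E2F genes and CDC25A had a median of 0.04 with 0 of 4 called, and the 6 helicase activation genes a median of 1.06 with 4 higher.

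Upper-quartile scaling moved the median of all tested genes in this comparison by -0.18, to -0.22, and gave 23 higher and 6 lower of the 56; over all genes 39.7% of calls were then higher, in place of 55.3%. The median of the 56, 0.67 with all libraries, was 0.60 without Molm13 OE heavy and 0.58 without U937 control heavy. Without Molm13 control light, the library that stood apart, it was 0.50. It was 0.81 without U937 OE heavy and 0.81 without U937 control light. TK1 codes for a short protein (coding sequence 801 bases), as do DUT (756), PCNA (783) and FEN1 (1140), while that of ORC1 has 2583 bases and that of POLA1 4404. Some long genes were higher in the heavy pools, among them CLSPN (4017 bases, 1.08) and TIMELESS (3624 bases, 1.18). Across the 56 genes, heavy over light fell with coding length at a rho of -0.35, against -0.10 over the 13611 tested genes with a coding sequence.

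**Figure D5:**
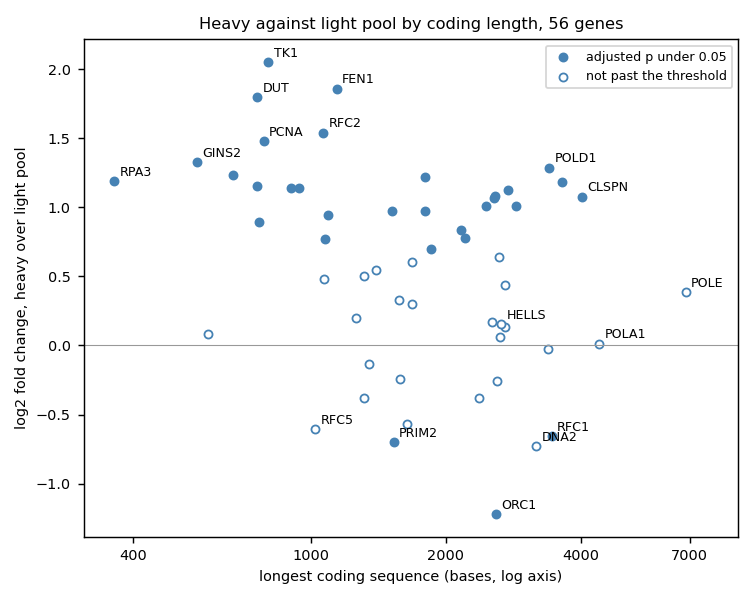
Log2 fold change of the heavy over the light pool against the longest coding sequence of each of the 56 genes (log axis); filled points passed the adjusted threshold. TK1, FEN1 and DUT lie highest, at 2.05, 1.86 and 1.79, and ORC1 lowest, at -1.22.

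Between the line labels no difference in the 56 genes was detected with these 8 libraries. The comparison of heavy and light pools, on the same 8 libraries, called 6937 of all tested genes. Whether the line labels are right was not tested. With edgeR 0 passed, where 0% of all tested genes did; 6 of the 56 had an unadjusted p under 0.05, as did 11.8% of all tested genes, and DESeq2 and limma voom called 0 of the 56. The median U937 minus Molm13 difference was 0.06. POLE2 had the value of smallest p, 0.87 (SE 0.23, adjusted p = 0.287), with 5.73 and 8.02 CPM under the U937 label in OE heavy and OE light libraries, against 3.63 and 3.89 CPM under the Molm13 label. RRM1 (0.56), EXO1 (0.53), PRIM2 (0.52) and WDHD1 (0.49) were the next positive values. TK1 (-0.77), RFC2 (-0.57), CLSPN (-0.56), POLD3 (-0.48) and FEN1 (-0.37) were the negative ones of smallest p.

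Other genes of the pathway gave the following counts, to be read beside the 2.36% of all tested genes that fell and the 12938 of 24289 with a negative value. Over both pools 1 of 15 further licensing and firing genes fell, RECQL4 (-1.19, SE 0.24, adjusted p = 0.0233), and the list had a median of -0.31; TICRR was at -0.92 and the CDT1 inhibitor geminin (GMNN) at -0.78. Of 20 further fork and chromatin factors 3 fell, DNMT1, the maintenance DNA methyltransferase (-1.18), the histone chaperone NASP (-1.08) and TOP1 (-0.95), with a median of -0.78. Of 9 further nucleotide genes 1 fell, CTPS1 (-1.09), while SHMT1 (-0.83) and DTYMK (-1.03) did not pass. Among 19 repair genes known as E2F targets 3 fell, among them BLM (-1.27) and BRCA1 (-1.20), and all 19 had negative values, with a median of -0.66. Of 27 genes of the retinoblastoma and E2F circuit and its cyclins and kinases 2 fell, cyclin E1 (CCNE1, -1.35) and the pocket protein gene RBL1 (-1.13), and the median was -0.00. CDKN1A, the CDK inhibitor p21, was at 1.13 (SE 0.42, adjusted p = 0.137), with 551 and 793 CPM in OE heavy libraries and 314 and 176 CPM in control heavy libraries, and 221 and 489 CPM in OE light libraries and 324 and 115 CPM in control light libraries. It was higher in 3 of the 4 OE libraries than in their controls. Whether these lists differ from the 56 genes was not tested.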

How the data were processed

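RNA of heavy and light sucrose gradient pools was sequenced after Trizol extraction with a Smart-seq kit, per the labels' protocols. The authors deposited raw counts per Ensembl gene ID; the submitters' processing notes name GRCh38, STAR, cutadapt and featureCounts. Tool versions, the annotation release and strandedness were not given in the sources used here. Computed here were symbols, GENCODE release 29 lengths and overlaps, and tests by quasi-likelihood in edgeR 4.0.16 under R 4.3.3, fitted to all 8 libraries with 1 term per group and 1 for the line label, after filterByExpr and TMM (3 residual degrees of freedom). SEs come from the F statistic. Log2 CPM used a prior count of 2. Libraries of the same line label are paired, as the same cell line; their deviations from group means correlated between groups at 0.02 to 0.34. Alternatives used DESeq2 1.42.0, limma 3.58.1, other scalings, no filter, no line label, summed gradients and 7 libraries. The fit was tested on simulated data. Those counts were drawn independently for each library, so the test did not cover dependence between pools of the same gradient. Genes given in full were the 2 of smallest p per role class (all in classes under 4), those against the majority, the 5 of smallest p per direction in other comparisons and 3 per further list, of which 1 gene is not reported here. The 56 genes, lists and rules were chosen with earlier results of these data known. Depth was 25741930 to 89373133 counts per library.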

Additional observations from a re-analysis of the deposited data

Results flagged for a closer look

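For 6 of the 56 genes (10.7%) the OE library was lower than its control in both heavy pairs and higher in both light pairs; 4.36% of all tested genes met that description. The heavy minus light difference of the OE over control log2 fold change was -2.00 (SE 0.51, adjusted p = 0.791) for RRM1, -1.77 (SE 0.48, adjusted p = 0.791) for ORC1, -1.65 (SE 0.48, adjusted p = 0.791) for PRIM2, -1.34 (SE 0.49, adjusted p = 0.791) for CDT1, -1.16 (SE 0.45, adjusted p = 0.791) for RFC1 and -0.49 (SE 0.52, adjusted p = 0.871) for RRM2. For RRM2 the Molm13 heavy pair held 158.7 CPM in the OE library and 159.0 CPM in the control, so its direction there is not resolved. In the U937 light pair the log2 difference was only 0.09 for RRM1 and 0.10 for RRM2. None of the 6 genes passed edgeR's test of the difference. The Molm13 control light library, whose MT-RNR2 share was 0.646% of counts, enters each of these values. Without it they were -1.70 for RRM1, -1.48 for ORC1, -1.41 for PRIM2, -1.14 for CDT1 and -1.03 for RFC1, none past the threshold.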

How the results depend on the processing

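No direction of a reported value past its threshold turned under any alternative; of the alternative values of single named genes 1060 kept their side of the threshold, 169 lost it and 85 gained it. Over both pools all genes past the threshold numbered 1061, and 2299 without the low-count filter, 2655 with DESeq2, 3172 with limma voom and the gradient as a random block, 116 without the replicate block (the line label) and 0 with gradients summed; of the 56 genes 31 passed, and 37 without the filter, 38 with DESeq2, 43 with limma voom and the gradient block, 12 without the replicate block and 0 with gradients summed. In the heavy pool 0 of the 56 and 1 gene in all passed, against 22 and 1039 without the filter, 24 and 994 with DESeq2, and 0 in all with limma voom, with its gradient block and without the replicate block. In the light pool 0 and 0 passed, against 10 and 560 without the filter and 20 and 930 with DESeq2. For the pool by label difference 0 and 0 passed, against 74 in all without the filter and 1 and 6 with DESeq2, and the median of -0.12 was -0.28 with upper-quartile scaling and -0.26 without the filter. The heavy over light median of 0.67 was 0.49 with upper-quartile scaling. Over both pools, limma voom without its gradient block called 36 of the 56 and 1244 genes in all, fewer than with the block. For heavy over light it called 7099 genes in all without the block and 5506 with it. The correlation within gradients that the block fit used is not given here, so its higher counts are not a firmer result. Between line labels 0 genes in all passed, against 412 without the filter, 303 with DESeq2, 1 with limma voom and 54 with its gradient block. Upper-quartile scaling shifted the median of all tested genes by 0.16 in the light pool, -0.17 in the pool by label difference and -0.18 in heavy over light.

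Leaving out 1 library at a time gave 0 to 41 of the 56 and 0 to 3126 genes in all over both pools (median -1.05 to -0.90), 0 to 25 and 0 to 1500 in the heavy pool (-1.13 to -0.90), 0 to 15 and 0 to 1471 in the light pool (-1.11 to -0.87), 0 to 4 and 0 to 975 for the pool by label difference (-0.34 to 0.062), 16 to 33 and 3601 to 9241 for heavy over light (0.50 to 0.81), and 0 to 0 and 0 to 52 between line labels (-0.05 to 0.16). The group left with 1 library was then assumed to vary like the others. With 2 libraries per group, counts of calls depend on the pooled estimate of the spread, and a gene that missed the threshold is not shown to be unchanged.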
